A study of Caenorhabditis elegans with 12 samples.

Results

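Nuclear hormone receptor mRNAs were followed through a translation state array assay of the nematode Caenorhabditis elegans. The genes were taken as those with a symbol starting nhr- that were the only gene named for a probe set by the platform annotation, and each gene was represented by its brightest probe set (highest average log2 signal on the 12 arrays). This gave 122 genes from 138 probe sets, among 10334 genes and 13333 probe sets analysed in all. A RefSeq gene table lists 283 genes with such symbols, so the receptors measured here are part of the family. The probe sets deposited are those that passed the authors' detection filter, which kept 13372 of 22626, so receptor mRNAs that failed the filter were not analysed here.

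Worms of mixed stages, wild type (N2) or carrying the ife-1(bn127) mutation, were grown for 3 days at 20 °C on bacteria with egg yolk. ife-1 encodes an isoform of the translation initiation factor eIF4E, which binds the mRNA cap. Lysates were resolved on gradients of 10 to 45% sucrose, and RNA was pooled into a nonpolysomal fraction (NP, lighter than 80S) and a polysomal fraction (P). Each genotype had 3 independently processed harvests, called cultures here, and each fraction of each culture was hybridised to 1 array, so that the 4 groups held 3 arrays each. The mutant was 1 strain with 1 allele, and whole animals were lysed, so the values average over all tissues.

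Nuclear hormone receptors are transcription factors with a zinc finger DNA-binding domain and a domain that can bind small lipophilic ligands such as sterols and fatty acids. Nematodes have a greatly expanded family, most of it related to the vertebrate fatty acid-responsive factor HNF4, with a few members that have clear counterparts in insects and vertebrates. They are known in the worm for control of molting, fat metabolism, detoxification and developmental timing, and they act through Mediator and other cofactors.

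The deposited descriptions fitted the family name in part. Of the 122 receptor probe sets, 57 were described as a nuclear receptor and 89 as a nuclear receptor or zinc finger protein. Another description was carried by 33, and 0 were described as a transposon. The RefSeq table placed 75 of the genes on chromosome V, 16 on IV, 15 on X, 6 on II, 5 on I and 5 on III. No chromosome in the deposited descriptions disagreed with it, though some descriptions, such as that of nhr-28, gave none. The mutated gene checked the genotype labels: the ife-1 probe set read 3566.7 to 5997.3 on the 6 wild-type arrays and 62.3 to 177.7 on the 6 mutant arrays, where it had 0 present calls. Array medians ranged from 367.3 to 428.6 signal units, and each spread rests on only 3 cultures per genotype.

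The receptor probe sets were dim. Their median log2 signal was 7.40 against 8.60 for all probe sets, a 2.3-fold gap in signal, and 101 of the 122 lay below the median of all probe sets. Brightness of different probe sets does not rank mRNA amounts, because probes differ in response. The highest mean log2 signals were those of nhr-46 (11.42), nhr-49 (11.40), nhr-3 (10.91), nhr-88 (10.87) and nhr-34 (10.75). A detection call of present on all 12 arrays was given to 81 receptors, or 66.4%, against 73.2% of all probe sets. Dim receptors also varied more: the median standard deviation of log2(P/NP) over the 3 wild-type cultures was 0.16 for the 21 receptors above the median signal and 0.35 for the 101 below it.

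The first question was where receptor mRNAs sat in the gradient of wild-type worms. Polysomal share is P/(NP+P) of the quantile-normalised signals, so 50% means the same relative position in both fractions, and every value is relative to the other mRNAs on the same array. In wild type, 27 receptors were higher in the polysomal fraction and 21 in the nonpolysomal fraction, and 74 did not pass the test (limma, Benjamini-Hochberg adjusted p under 0.05 over all probe sets). Called receptors were 39.3% of the family, while 55.8% of all probe sets were called, 26.5% as polysomal and 29.3% as nonpolysomal. The median receptor had a share of 49.8% ± 1.09 (SD over cultures, n = 3), and the median of all probe sets was 49.2%. The p-values measure the spread between harvests only, estimated jointly from the 6 cultures of both genotypes.

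The most polysomal receptor mRNA was nhr-107, with shares of 84.5%, 68.1% and 70.3% in wild-type cultures 1, 2 and 3 (adjusted p = 0.00109). nhr-90 had shares of 73.6%, 78.4% and 69.1% (adjusted p = 0.000331). All 6 values lay well above 50%. The extreme receptors were picked only among those with all 3 wild-type shares on 1 side of 50%. nhr-65 followed at 66.8% ± 2.42, nhr-105 at 65.8% ± 2.24 and nhr-70 at 65.8% ± 0.799 (SD, n = 3 each), and nhr-70 showed the tightest replicates of the group. These 5 receptors passed the test in wild type under every alternative processing in which they were tested. nhr-112 averaged 67.8% ± 15.4, and its call rested on culture 1 at 85.4%, since cultures 2 and 3 gave 56.7% and 61.4% and the call was lost without culture 1.

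Some polysomal receptors were not detected at all in the nonpolysomal fraction of wild type. For a probe set with 0 present calls in a fraction the ratio rests on undetected signals. Its mean in the detected fraction was set against the higher of its own signal and the dimmest fully detected signal of each undetected array. By that rule nhr-153 was 2.19-fold higher in polysomes, nhr-130 1.82-fold, nhr-108 1.62-fold and nhr-44 1.39-fold. These folds equal the fitted ratios, since the own signal was the higher one. They leave out the spread between cultures, so the true ratios may be smaller. nhr-153 had shares of 63.6%, 70.4% and 71.7%. nhr-108 was detected on 2 of 3 polysomal arrays, and its call was lost with an offset of 50, with fractions unpaired and without wild-type culture 1 or 2. The call of nhr-44 was lost without wild-type culture 1 or 3. Another 7 of the 27 polysomal receptors had a present call on 1 or 2 of the 3 nonpolysomal arrays, so their ratios rest partly on undetected signals.

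At the other end, nhr-110 had wild-type shares of 24.7%, 28.6% and 21.4% (adjusted p = 0.0151). nhr-139 had shares of 33.6%, 26.1% and 31.4% (adjusted p = 0.000573). nhr-97 had shares of 31.6%, 29.9% and 34.6% (adjusted p = 0.000427). All 9 values lay below 50%, which the rule for picking receptors required. nhr-97 combined a low share with a bright probe set, brighter than 82.9% of all probe sets. nhr-172 averaged 31% ± 8.33, nhr-98 33.9% ± 7.04 and nhr-202 35.9% ± 3.96 (SD, n = 3 each). nhr-278 at 33.5% ± 13.3 and nhr-152 at 34.8% ± 14.3 were far more variable, and nhr-152 reached 49.8% in culture 2. The calls of nhr-110 and nhr-152 were lost without wild-type culture 1 or 3, and that of nhr-278 without growth set 1 or 2. The other nhr-110 probe set had wild-type shares of 4.26%, 55.6% and 30.0% and did not pass (limma adjusted p = 0.0595). In ife-1 the brightest nhr-110 probe set ranged widely, at 35.6%, 13.4% and 54.5% (limma adjusted p = 0.071). For nhr-97 the other probe set was also nonpolysomal in wild type, at 38.8% ± 6.97 (limma adjusted p = 0.015).

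**Figure D1:**
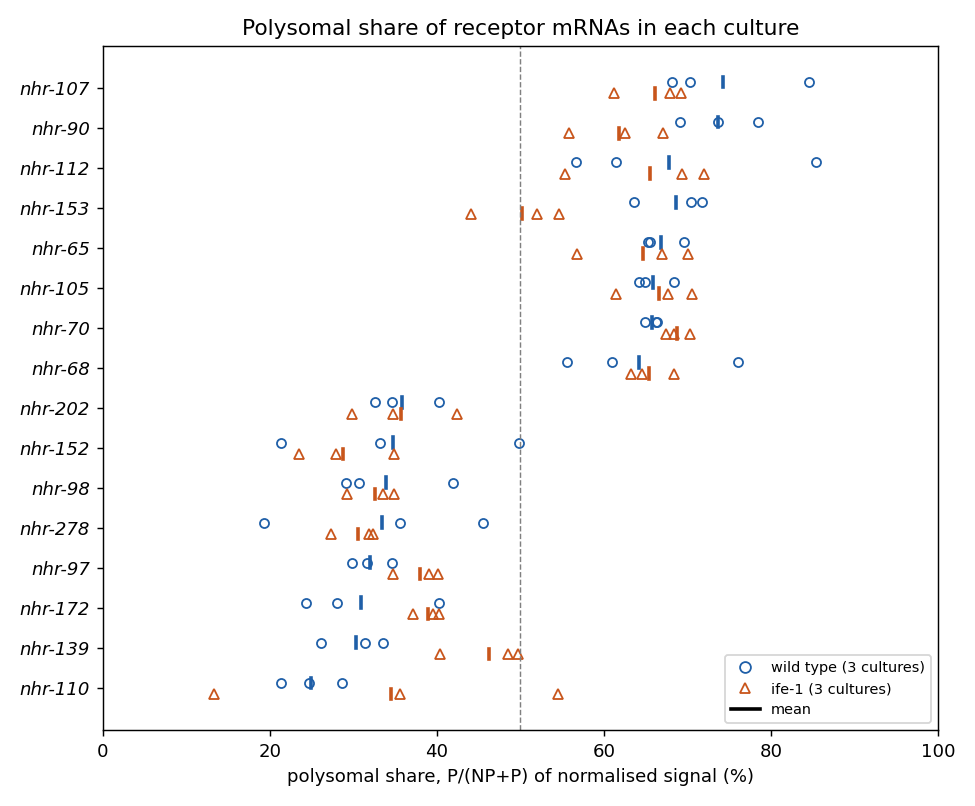
Polysomal share (percent of normalised signal, horizontal axis) of the 8 most polysomal and 8 most nonpolysomal receptor mRNAs of wild type, 1 point per culture, circles for wild type and triangles for ife-1, bars for means of 3. By the rule that picked them, the upper 8 genes lie right of the dashed 50% line in wild type and the lower 8 left of it. The ife-1 points of nhr-153 and nhr-139, picked as wild-type extremes, lie nearer that line.

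These counts depend on 1 wild-type culture and on the scaling between fractions. Without wild-type culture 1, 12 receptors were called polysomal and 12 nonpolysomal, and without both cultures of growth set 1 the counts were 8 and 9. Scaling the arrays to the bacterial control probe sets raised the median log2(P/NP) of all probe sets to 0.53 in wild type and called 53 receptors polysomal and 4 nonpolysomal, so the split between directions holds only relative to the average mRNA.

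In ife-1 worms, 20 receptors were higher in the polysomal and 22 in the nonpolysomal fraction, against 48.9% of all probe sets called, 22.7% as polysomal and 26.1% as nonpolysomal. Without ife-1 culture 1, 2 or 3, the calls numbered 14 and 14, 15 and 10, and 14 and 14, and signals as deposited gave 32 and 14. Across the genotypes, 14 receptors were called polysomal in both and 12 nonpolysomal in both. The 2 tests use different cultures but share an estimate of the spread. The share of all probe sets called in both was not computed. The polysomal group shared by both genotypes was nhr-3, nhr-10, nhr-11, nhr-44, nhr-65, nhr-68, nhr-70, nhr-90, nhr-105, nhr-107, nhr-120, nhr-121, nhr-143 and nhr-180. The nonpolysomal group was nhr-2, nhr-66, nhr-84, nhr-86, nhr-97, nhr-98, nhr-152, nhr-172, nhr-202, nhr-230, nhr-232 and nhr-278. In the mutant, nhr-70 was the most polysomal receptor called, at 68.4%, 70.3% and 67.4%, and nhr-152 the least, at 23.5%, 28% and 34.9%.

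**Figure D2:**
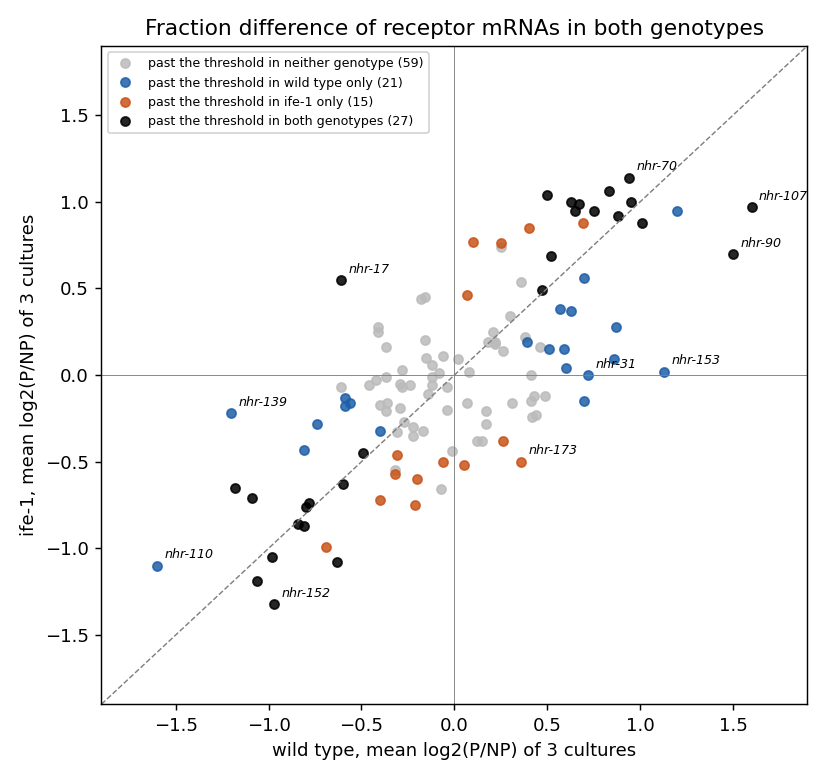
Mean log2(P/NP) of the 3 wild-type cultures (horizontal axis) against that of the 3 ife-1 cultures (vertical axis) for the 122 receptor mRNAs, coloured by the genotype in which the fraction test passed. Of the 27 receptors called in both genotypes, 26 lie in the lower left or upper right, at varied distances from the dashed line of equality, and nhr-17 lies in the upper left.

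Receptors with known roles were spread over both fractions. Among those with clear counterparts outside nematodes, 0 of 5 measured passed the fraction test in wild type: nhr-6, the counterpart of the NR4A receptors, had a share of 43.8% ± 6.84, and the molting regulators nhr-23 and nhr-25 had 43.2% ± 7.0 and 45.3% ± 10.1. nhr-8, known for sterol balance and resistance to toxins, had 51.2% ± 2.74 in wild type and 57.9% ± 1.09 in ife-1, where it passed as polysomal (adjusted p = 0.0221), a call that was lost without any single ife-1 culture. nhr-48, related to nhr-8 and daf-12, stayed at 50.3% ± 6.05 and 51.5% ± 3.14 (SD, n = 3 each), within its spread of equal loading.

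Of the 7 receptors listed for fat metabolism, 1 was polysomal and 1 nonpolysomal in wild type. nhr-49, the central activator of fatty acid breakdown and desaturation in the worm, had shares of 53.0%, 56.5% and 52.1% in wild type and 53.2%, 53.5% and 52.6% in ife-1, and passed neither test. nhr-69 was polysomal in wild type at 64.5% ± 6.24 (adjusted p = 0.00594) and had 54.7% ± 6.38 in ife-1 (adjusted p = 0.277). nhr-66, a partner of nhr-49 in lipid gene control, was nonpolysomal at 41.7% ± 5.31 in wild type and 42.3% ± 1.56 in ife-1 (adjusted p = 0.0277 and 0.0436), but its log2 ratio in wild type became 0.10 with scaling to bacterial controls, its wild-type call was lost without wild-type culture 1 or 3, and its mutant call without any single ife-1 culture. With growth set as a replicate block the adjusted p of nhr-66 was 0.0539 and 0.078, and with fractions unpaired 0.0593 and 0.0909, so neither call held. nhr-13, also a partner of nhr-49, was nonpolysomal in ife-1 at 40.3% ± 3.96 (adjusted p = 0.0206), a call lost without ife-1 culture 2 or 3. nhr-80, which acts on desaturation, had 46.9% ± 9.41 and 57.5% ± 2.88 and passed in neither genotype.

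Both measured receptors of the propionate breakdown response, nhr-10 and nhr-68, were polysomal in both genotypes. nhr-10 had shares of 62.8%, 55.9% and 64.5% in wild type and 67.8%, 61.7% and 68% in ife-1. nhr-68 had shares of 76.1%, 61.0% and 55.6% in wild type and 68.4%, 64.6% and 63.3% in ife-1. All 12 values exceeded 50%. The wild-type call of each was lost without wild-type culture 1, that of nhr-10 also without culture 3, and the mutant call of nhr-68 without ife-1 culture 1 or 2.

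Among the 6 measured receptors tied to toxins, pathogens and stress, nhr-86, which controls immune genes, was the only one nonpolysomal in wild type. It had shares of 38%, 37.2% and 35.2% in wild type and 38.8%, 37.6% and 36.1% in ife-1 (adjusted p = 0.00138 and 0.00245). The 6 cultures therefore agreed within 4 points. nhr-45 was polysomal in ife-1 at 64.2% ± 3.70 (adjusted p = 0.00612), with 56.8% ± 7.18 in wild type (adjusted p = 0.0982). The early embryonic receptor nhr-2 was nonpolysomal in both genotypes, at 36.4% ± 4.64 and 35.3% ± 1.47 (adjusted p = 0.00245 and 0.0022), and nhr-31, which acts in the excretory cell, was polysomal in wild type at 62.2% ± 2.47 (adjusted p = 0.00471).

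The comparison at the centre of the design is the change in polysomal association, the difference in log2(P/NP) between ife-1 and wild type. None of the 122 receptors passed this test, against 0.128% of all probe sets. By limma, 16 receptors had an unadjusted p under 0.05, 5 of them higher and 11 lower in ife-1, while 20.5% of all probe sets did. The mutant shares lay above all wild-type shares for 14 receptors and below them for 16, where 14.8% and 12.4% of all probe sets did so. The median association change was 0.01 for receptors and 0.03 for all probe sets.

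nhr-17 had the largest positive change and was the 1 receptor called in opposite fractions. The wild-type cultures gave shares of 41.1%, 34.0% and 44.1%, and the ife-1 cultures gave 61.6%, 51.1% and 65.3%. The groups did not overlap, and the association change was 1.16 ± 0.28 (SE, log2 scale; unadjusted p = 0.00294, adjusted p = 0.0923). Its fraction calls were near the threshold (adjusted p = 0.0297 in wild type and 0.0465 in ife-1), the first being lost without wild-type culture 1 or 2 and the second without ife-1 culture 1 or 3. Its deposited nonpolysomal signal in wild-type culture 2 was 1148.3, against 295.8 and 292.1 in cultures 1 and 3. The authors' deposited table gives a mean fold of the share, wild type over ife-1, of 0.656 for nhr-17, and 0.603 for nhr-139 as the lowest among the receptors.

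nhr-139 had shares of 40.4%, 48.5% and 49.7% in ife-1, above its 3 wild-type values, a change of 0.98 ± 0.24 (adjusted p = 0.0926). nhr-34 had 51.8% ± 3.39 in wild type and 63.0% ± 1.84 in ife-1, and nhr-3 had 58.5% ± 2.67 and 67.2% ± 2.78 (SD, n = 3 each), with differences of 0.66 and 0.54 (adjusted p = 0.132 and 0.193). Scaling to bacterial controls, which lowered the median association change of all probe sets to -0.47, turned these last differences to -0.02 and -0.16. For nhr-3 the other probe set of the gene changed by -0.87, against 0.54 for the brightest, so its probe sets disagree in direction.

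In the other direction, nhr-153 had shares of 63.6%, 70.4% and 71.7% in wild type and 54.6%, 44.1% and 52.0% in ife-1. The fitted change was -1.12 ± 0.25 (unadjusted p = 0.00174, adjusted p = 0.0789), but it rests on nonpolysomal signals with 0 of 3 present calls in wild type and 1 of 3 in ife-1, so it is no measured size. The authors' deposited table gives it a mean fold of the share of 1.27, the highest among the receptors. nhr-173 had shares of 56.1% ± 5.70 in wild type and 41.5% ± 2.30 in ife-1 and a change of -0.86 (adjusted p = 0.106), nhr-31 had a change of -0.72 and nhr-116 one of -0.64 (adjusted p = 0.132 and 0.133). All 4 had mutant shares below every wild-type share. Other settings brought single receptors past the threshold: nhr-17 and nhr-153 with an offset of 50, and nhr-153 with bacterial control scaling. nhr-31 passed among probe sets above the median signal, and nhr-17 and nhr-139 among probe sets present on all arrays. The same settings raised the calls over all probe sets, from 4 higher and 13 lower of 13333. An offset of 50 gave 260 and 349, and bacterial control scaling 9 and 333. Above the median signal 348 and 220 of 6666 were called, and among those present on all arrays 171 and 177 of 9760.

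**Figure D3:**
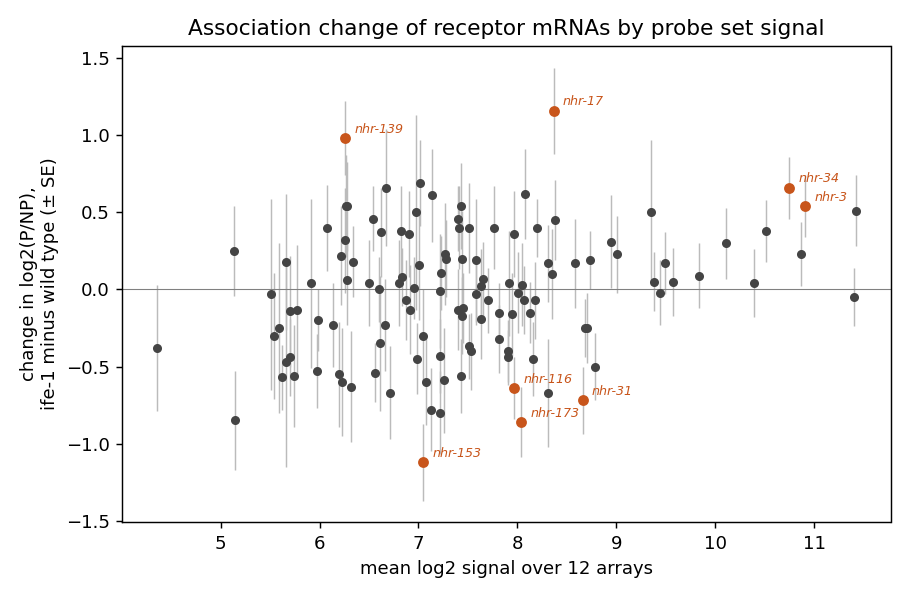
Change in log2(P/NP), ife-1 minus wild type, with its SE (vertical axis) against the mean log2 signal over 12 arrays (horizontal axis) for the 122 receptor mRNAs; the 8 named receptors, 4 with the lowest unadjusted p in each direction, are coloured. None passed the adjusted threshold, and the fitted changes range from -1.12 for nhr-153, which was not detected in the wild-type nonpolysomal fraction, to 1.16 for nhr-17.

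The sum of both fractions, log2(P + NP), asked whether receptor mRNA levels differed between the genotypes. In ife-1, 9 receptors were higher and 15 lower, together 19.7% of the family, against 39.6% of all probe sets, 21.0% higher and 18.5% lower. In whole worms, fewer cells of a type and less RNA per cell cannot be told apart. All 24 called receptors had no overlap between the 3 cultures of each genotype, and the count of receptors without overlap was 20 above and 25 below, against 29.5% and 24.1% of all probe sets. The counts depended on the growth sets: without set 1 they were 0 and 0, and without set 3 they were 0 and 3. Without ife-1 culture 1 they were 6 and 7, without ife-1 culture 3 they were 3 and 8, and without wild-type culture 1 they were 4 and 12.

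The largest decrease was that of nhr-173 on chromosome X. Combined signals of 1119.7, 949 and 679 in the wild-type cultures stood against 256, 412 and 297 in the ife-1 cultures, a change of -1.51 ± 0.25 (SE, log2 scale; adjusted p = 0.00391). nhr-6, which is required to form the spermatheca, had signals of 763, 926 and 665 in wild type and 296, 316 and 381 in ife-1 (-1.24 ± 0.18, adjusted p = 0.00271). Every wild-type value was above every mutant value for both genes, as the rule for picking the largest changes required. These calls were lost in 1 alternative only, the fit without set 1.

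nhr-57, a target of the hypoxia-inducible factor, had signals of 685, 1268.6 and 722 in wild type and 419, 374 and 394 in ife-1 (-1.11 ± 0.25, adjusted p = 0.0111). nhr-40, which acts in muscle development, had signals of 1987.6, 1832.9 and 1541.3 against 1073.3, 1141.1 and 1060.4 (-0.70 ± 0.16, adjusted p = 0.0113). The other, dimmer nhr-40 probe set changed by -0.30, with overlap between the genotypes, and did not pass (limma adjusted p = 0.283). nhr-31 changed by -0.70 ± 0.21 (adjusted p = 0.0353). The calls of nhr-40 and nhr-31 were also lost without ife-1 culture 1, and that of nhr-31 without ife-1 culture 3 or wild-type culture 2 or 3. With nhr-2 higher and nhr-6, nhr-40 and nhr-31 lower, all 4 measured receptors of the organ and embryo list changed, where 39.6% of all probe sets were called. That list was chosen with earlier results of these data known, so its count is no independent support. In the same comparison all 15 oocyte markers were higher and 9 of 14 muscle markers lower, and their part in these changes was not tested. The other lower receptors were nhr-115 (-1.07), nhr-21 (-0.99), nhr-137 (-0.93), nhr-53 (-0.89), nhr-11 (-0.70), nhr-101 (-0.66), nhr-142 (-0.59), nhr-106 (-0.57), nhr-167 (-0.55) and nhr-44 (-0.46). nhr-44 had 0 present calls in the wild-type nonpolysomal fraction and its call held in 3 of 15 alternatives. The call of nhr-167 held in 5 of 15, that of nhr-106 in 6 of 15 and that of nhr-142 in 8 of 16. The calls of nhr-11, nhr-21 and nhr-101 were lost without ife-1 culture 1, those of nhr-11 and nhr-21 also without ife-1 culture 3, that of nhr-21 without ife-1 culture 2 and that of nhr-11 without wild-type culture 1.

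Among the higher receptors, nhr-2 had combined signals of 365, 503 and 329 in wild type and 751, 830 and 830 in ife-1. The change was 1.03 ± 0.19 (adjusted p = 0.00589), and its other probe set gave 0.83, also past the threshold. nhr-76, described for serotonin-controlled fat use, had signals of 261, 213 and 242 against 572, 424 and 549 (1.1 ± 0.18, adjusted p = 0.00346). The mutant cultures of both genes all lay above the wild-type ones, which the same picking rule required. nhr-181 gave the largest increase, 1.25 ± 0.22 (adjusted p = 0.00494), from a dim probe set with signals of 84.5, 99.1 and 65.9 in wild type and 157 or more in each ife-1 culture (mean 198). nhr-203 changed by 0.96 and had 0 present calls on the wild-type nonpolysomal arrays.

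The remaining higher receptors changed less: nhr-204 by 0.58, nhr-86 by 0.57, nhr-116 by 0.56, nhr-154 by 0.55 and nhr-243 by 0.53. nhr-86 had signals of 1077.4, 1159.9 and 1158 in wild type and 1639.7, 1558.9 and 1847.8 in ife-1 (adjusted p = 0.0186), a call lost without ife-1 culture 1 or 3 or wild-type culture 1. The call of nhr-154 held in 1 of 16 alternatives, that of nhr-116 in 2 of 15, that of nhr-243 in 5 of 16 and that of nhr-204 in 9 of 16. Other scalings moved the balance between directions: signals as deposited gave 5 higher and 22 lower receptors, median scaling 5 and 23, and bacterial control scaling 6 and 5. The medians of all probe sets under these scalings were -0.02, -0.04 and 0.27, against 0.06 with quantile normalisation. With growth set as a replicate block, 7 receptors were higher and 13 lower, and nhr-44, nhr-106, nhr-116, nhr-142 and nhr-154 were no longer called.

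**Figure D4:**
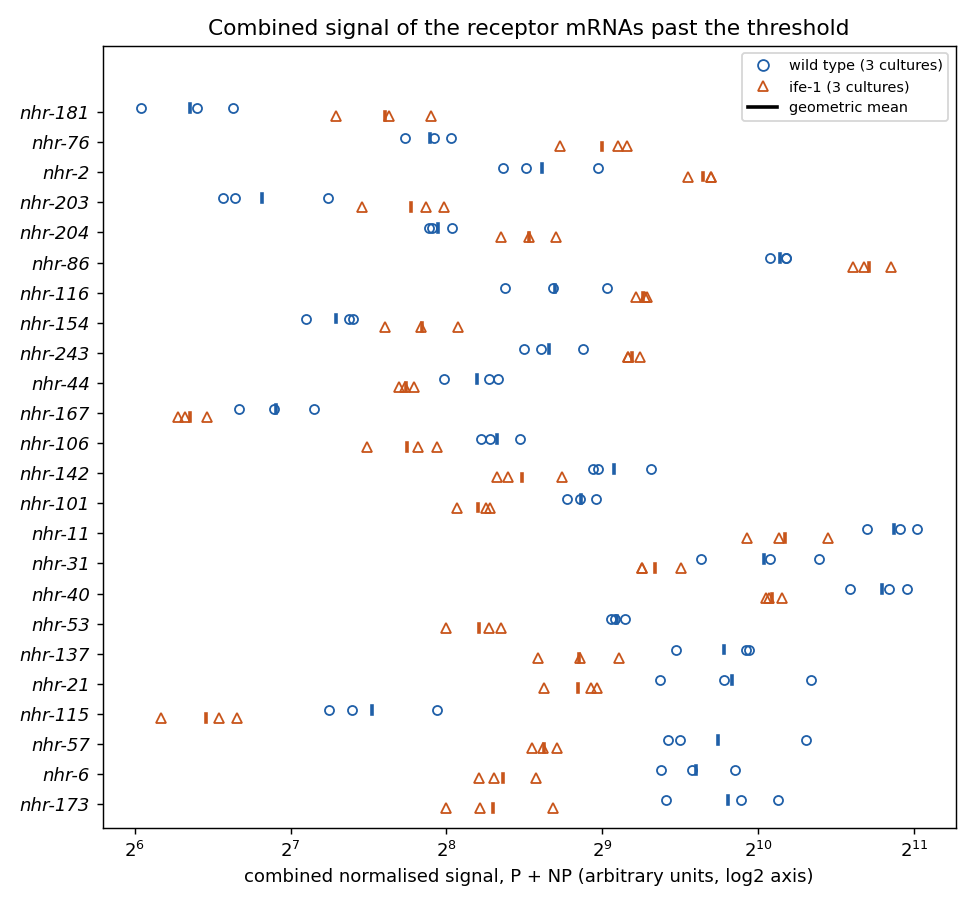
Combined normalised signal P + NP on a log2 axis (arbitrary units, horizontal axis) for the 24 receptor mRNAs past the abundance threshold, 1 point per culture, circles for wild type, triangles for ife-1, bars for geometric means. The upper 9 genes have all triangles right of the circles and the lower 15 have them left.

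Markers of whole tissues, listed with earlier results of these data known, moved in the same comparison, in which 21.0% of all probe sets were higher and 18.5% lower. Of 15 oocyte marker genes, 15 were higher in ife-1, with summed combined signals of 66144 to 75427 in wild-type cultures and 124675.3 to 158024.4 in ife-1. Of 13 epidermal markers 7 were lower, with sums of 126609.7 to 136274.6 in wild type and 84279.4 to 97301.5 in ife-1, and 9 of 13 neuronal and 9 of 14 muscle markers were lower. Of 13 intestinal markers 4 were higher and 4 lower. Of 11 sperm markers 0 passed, but all 11 had estimates below 0, with a median of -0.48 and a median SE of 0.47. Their summed signals ran from 106977.7 to 251654.4 in wild-type cultures and from 121993.4 to 132470.6 in ife-1. The part of these tissue differences in the receptor changes was not tested.

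Of the 15 receptors on chromosome X, 4 were lower and 0 higher in ife-1, namely nhr-173, nhr-137, nhr-40 and nhr-167. Of all 1414 genes measured on X, 416 were lower and 154 higher. Of the 75 receptors on V, 7 were higher and 7 lower, and of all 1996 genes measured on V, 342 were higher and 449 lower. nhr-173 and nhr-137 are next to each other in the RefSeq gene order, and both fell. Adjacent receptor genes formed 20 pairs, 18 of them on V. The members of a pair had abundance changes of the same sign in 15 of 20 pairs, and wild-type fraction differences of the same sign in 6 of 20. The pairs hold only 32 receptors, so some receptors recur. Adjacent pairs of other genes were not counted, so these numbers have no background to stand against. In 3 pairs the neighbours were called in opposite fractions: nhr-65 (1.01) with nhr-230 (-0.63), nhr-115 (0.39) with nhr-226 (-0.81) and nhr-153 (1.13) with nhr-154 (-0.74), as log2(P/NP) in wild type. Only nhr-130 and nhr-212 were called in the same fraction, the polysomal one. The call of nhr-115 held in 4 of 16 alternatives.

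For 16 receptors the other probe set of the gene gave a check. In the wild-type fraction test, 14 of 16 had the same sign, 4 were called in the same direction and 0 in opposite directions. In ife-1, 13 of 16 had the same sign, 4 were called alike and 4 with the brightest probe set alone. The association change had the same sign in 10 of 16. In 3 genes only the dimmer probe set was called, namely nhr-28 (1.48), nhr-46 (0.78) and nhr-88 (-1.51), as log2(P/NP). The dimmer nhr-88 probe set is described in the deposited table as a transposable element on another chromosome. In the abundance test 12 of 16 had the same sign, and nhr-2 and nhr-11 were called alike with both probe sets.

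The receptors with other symbols and the partner genes complete the pathway, and their counts stand against 26.5% of all probe sets called polysomal and 29.3% called nonpolysomal in wild type. daf-12, the receptor for dafachronic acids, was polysomal in wild type at 59.7% ± 5.44 (adjusted p = 0.0186), had 52.0% ± 3.41 in ife-1 and was lower in abundance by -0.83 (adjusted p = 0.00803). sex-1, which reads the X chromosome dose, was nonpolysomal in ife-1 at 42.9% ± 2.27 (adjusted p = 0.036). Among the 6 measured sterol and ligand genes, 2 were polysomal and 2 nonpolysomal in wild type, and 2 were lower in abundance. Those 2 were strm-1, a sterol methyltransferase, at -1.38, and dhs-16, a dehydrogenase of dafachronic acid synthesis, at -1.17 (adjusted p = 0.00823 and 0.00295).

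Of 8 measured Mediator subunits and cofactors, 3 were polysomal and 3 nonpolysomal in wild type. let-19, the MED13 subunit, had 83.6% ± 1.77 and the acetyltransferase cbp-1 62.2% ± 3.02, while mdt-8 had 20.4% ± 6.37 and mdt-6 24.7% ± 4.88 (SD, n = 3 each). mdt-6 and let-49 were higher in abundance in ife-1, by 0.75 and 1.76. Among 7 genes reported to depend on nhr-49, 4 were polysomal and 2 nonpolysomal in wild type: the desaturase fat-5 had 84.4% ± 1.80, and the related fat-6 had 33.7% ± 1.30. acs-2, an acyl-CoA synthetase, had 51.4% ± 1.48 in wild type and 71.3% ± 7.74 in ife-1, and like every gene of these lists it did not pass the association test.

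Of 8 molting genes, several of which act downstream of nhr-23, 5 were lower in abundance in ife-1 and 0 higher, with a median change of -0.96, where 18.5% of all probe sets were lower. This list, too, was chosen with earlier results of these data known. The epidermal markers, of which 7 of 13 were lower, had a median change of -1.0, and their part in this result was not tested. The lower ones were mlt-8 (-1.86), mlt-9 (-1.56), noah-2 (-1.28), nas-36 (-0.92) and mlt-11 (-0.89). The molting receptors nhr-23 and nhr-25 themselves had changes of 0.16 and -0.15 and did not pass. Of 11 genes of vitamin B12-linked metabolism, 5 were polysomal and 1 nonpolysomal in wild type, 1 was higher in abundance and 2 were lower.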

How the data were processed

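Signals of 12 Affymetrix arrays were deposited as intensity values on a linear scale. Per the labels they are raw signals from the Affymetrix files; the sources used here do not name the software. The authors kept probe sets on detection calls, per the file headers, which were matched to groups only, since the headers do not tie a call to an array. The authors' deposited mean folds are averages over the 3 growth sets of the wild type over ife-1 ratio, for P/(NP+P) and for NP+P. A single set with a large ratio can therefore raise them. A further 36 columns with per-sample values were left unused.

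Without the 39 control probe sets, signals were floored at 1 (5 values), log2-transformed and quantile-normalised over the arrays. Quantile normalisation removes overall differences in RNA amount, and the sum of fractions weights both alike. log2(P/NP) and log2(P + NP) per culture were fitted with limma 3.58.1 (lmFit, eBayes without trend) in R 4.3.3 over all 13333 probe sets and 6 cultures, with Benjamini-Hochberg adjustment at 0.05; the scripts were tested on simulated data. Tables and figures were made with Python 3.11.15, pandas 2.3.3 and matplotlib 3.10.9.

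The deposited outline pairs wild-type and ife-1 cultures within each growth set. Deviations of paired cultures from their genotype means correlated at -0.032, -0.0627 and 0.0234 for log2(P/NP) in sets 1, 2 and 3, and at -0.1132, -0.0532 and 0.1302 for abundance. The set was used as a block in an alternative.

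Members and lists were chosen with earlier results of these data known. Named receptors were those of the role lists, up to 8 per comparison and direction with the largest change among those past the threshold without overlap (at least 4, filled by unadjusted p), and the 5 brightest; values of a few others belong to counts or pairs and were chosen after being seen. Symbols came from the platform annotation. 5 probe sets naming several genes were left out, among them that of nhr-62.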

Additional observations from a re-analysis of the deposited data

How the results depend on the processing

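Each count was recomputed under other scalings, filters, an offset, a variance trend, unpaired fractions, growth set as a replicate block and with cultures left out, of which single cultures other than wild-type culture 2 were left out as alternatives chosen after seeing the data. Of 150 such counts, 112 stayed within 1.5 times the reported one, or at 0 where the reported count was 0, as for association. In wild type, 27 polysomal and 21 nonpolysomal receptors became 53 and 4 with bacterial control scaling, 7 and 4 among the 21 receptors above the median signal, and 13 and 21 among the 81 present on all arrays; leaving out cultures gave 8 to 25 and 9 to 23. In ife-1, 20 and 22 became 23 and 9 with bacterial control scaling, 9 and 5 above the median signal, and 32 and 14 with signals as deposited; leaving out cultures gave 13 to 23 and 10 to 23. Association calls, 0 in both directions, became 1 higher and 1 lower with an offset of 50, 1 lower with bacterial control scaling, 1 lower above the median signal and 2 higher among probe sets present on all arrays, and stayed at 0 in each fit that left out cultures. Under the settings that added receptor calls, the calls over all probe sets rose too, as given above. In abundance, 9 higher and 15 lower became 5 and 23 with median scaling, 5 and 22 as deposited, 6 and 5 with bacterial control scaling and 1 and 4 above the median signal; leaving out cultures gave 0 to 10 and 0 to 15. The filters test fewer receptors, and fits without cultures have fewer samples; for the scalings the cause was not tested.

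With the replicate block, 26 polysomal and 18 nonpolysomal receptors were called in wild type, 19 and 18 in ife-1, 0 in association, and 7 higher and 13 lower in abundance. The block ended the wild-type fraction calls of nhr-66, nhr-101, nhr-115 and nhr-260 and the ife-1 calls of nhr-53, nhr-66, nhr-104, nhr-116, nhr-173 and nhr-274. Bacterial control scaling reversed nhr-66 in the wild-type fraction test (0.10) and nhr-34 (-0.02) and nhr-3 (-0.16) in association. Of the values of single receptors, 1007 kept direction and side of the threshold, 160 lost the threshold, 6 gained it and these 3 reversed. The median standard deviation of log2(P/NP) was larger for the 101 receptors below the median signal than for the 21 above it. It was 0.35 against 0.16 in wild type and 0.31 against 0.18 in ife-1, and the cause was not tested.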

Other observations

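The 5 probe sets that name an nhr- gene together with another gene record gave the following values. The nhr-62 probe set, which carries 2 gene records of that symbol, had polysomal shares of 53.8% ± 2.39 in wild type and 49.9% ± 5.47 in ife-1 (SD, n = 3), and an abundance change of -0.04 (limma adjusted p = 0.903). A probe set shared by nhr-88 and ZC239.1 had shares of 21.3%, 20.3% and 23.7% in wild type and 35.1%, 24.6% and 36% in ife-1, and was nonpolysomal in both genotypes (adjusted p = 0.000119 and 0.00165). The mutant values all lay above the wild-type ones, and the association change of 0.74 ± 0.26 (SE) did not pass (adjusted p = 0.166). The dimmer probe set shared by the same genes had 33.5% ± 8.12 and 32.5% ± 1.37, and was also nonpolysomal in both. The probe set of nhr-73 and nhr-245 was nonpolysomal in wild type at 42.1% ± 3.16 (adjusted p = 0.0315), and that of nhr-231 and nhr-170 in ife-1 at 41.6% ± 4.37 (adjusted p = 0.0355).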
